A study of Mus musculus with 8 samples.

Results

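Macrophages from mice with a myeloid-specific deletion of the mineralocorticoid receptor were compared with floxed control macrophages, both cultured without added hormone. The comparison used 4 of the 8 arrays of the series, 2 from knockout cells and 2 from control cells, and covered 18193 genes. All mice were labelled C57BL6/J and male, without an age. The knockout mice carried MR fl / fl and LysM cre, and the control mice MR fl / fl alone, so that Cre was present in the knockout arm only. LysM cre expresses the recombinase from the lysozyme 2 locus, which is active in macrophages and neutrophils. Per the labels' protocols, cells were collected from the peritoneal cavity 4 days after an injection of 3% Brewer's thioglycolate, an irritant that draws monocytes into the cavity, and were kept by adherence in medium with serum. They then stood for 24 h without hormone, or with 1 µM corticosterone in the other 4 arrays, which formed the corresponding pairs of knockout and control samples. Each sample was a pool of experiments done in triplicate, so that the p-values below measure the spread between pools, which may be technical.

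The mineralocorticoid receptor, encoded by Nr3c2, is a nuclear receptor that binds aldosterone and, with high affinity, the glucocorticoid corticosterone, and then acts on DNA as a transcription factor. The related glucocorticoid receptor, Nr3c1, binds corticosterone less tightly and is abundant in macrophages. In kidney and colon the enzyme Hsd11b2 inactivates corticosterone and leaves the mineralocorticoid receptor to aldosterone. Deletion of the receptor in myeloid cells of mice is known for its effects on the inflammatory and fibrotic behaviour of macrophages.

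Levels are log2 expression values, so that a difference of 1 is a doubling, and levels of different genes are not compared. The second control array differed strongly from the other arrays. Over all genes its highest correlation with another array was 0.928, whereas the knockout arrays correlated with each other at 0.998 and the first control array correlated with them at 0.996 or more. The knockout arrays differed from each other by over 1 log2 unit for 76 genes, and the control arrays for 4629 genes. The 3' signal exceeded the 5' signal of the Actb control by 2.18 on the second control array and by 0.41 to 0.62 on the other 7 arrays. Macrophage identity was present throughout: the mean level of 16 macrophage markers was 12.71 and 12.69 in knockout cells, against 12.70 and 12.23 in control cells. Of these 16 markers only Cd14, the lipopolysaccharide co-receptor, was called (6.25%, against 1.43% of all genes), at 0.28 higher in knockout cells. Cd14 lost its call under 2 of 16 other settings, one of which centred each array on its median.

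The labelled sex was also checked, with genes chosen after their values were seen. Xist, the RNA that coats the inactive X chromosome in female cells, was between 12.05 and 12.27 on all 8 arrays by its brightest probe set. Its other probe sets were lower on the second control array, at 9.96 and 8.02. On the other 7 arrays they were at 10.85 to 11.12 and 9.93 to 10.21. Eif2s3y, a Y-linked translation factor gene, was 5.12 and 5.60 in knockout cells, against 4.46 and 10.06 in control cells, where the high value belongs to replicate 2. For Kdm5d, also Y-linked, 1 probe set was at 6.84 on that array and at 2.13 to 3.10 on the other 7. Its other probe sets were at 3.92 and 2.47 there, and were low on the other 7 arrays too. These levels go against the label male for the 7 arrays with low Eif2s3y, and the second control array held both transcripts. The mean level of 18 markers of mesothelial cells and fibroblasts was 6.67 and 6.67 in knockout cells, against 6.68 and 7.77 in control cells. What part these features of the second control array have in the results was not tested. Without hormone, a difference given alone is against control replicate 1. For some genes the difference with both controls is given beside it, and it can differ in size or sign.

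The targeted gene was read first. Nr3c2 was at 5.54 and 5.82 in knockout cells, against 6.39 and 8.46 in control cells. Both knockout arrays lay below both controls, but the difference passed neither with replicate 1 (-0.71 ± 0.215 SE, adjusted p = 0.161, limma) nor with both controls (-1.75, adjusted p = 0.486). The array holds 1 probe set for Nr3c2, and the labels do not say whether it lies inside the deleted part of the gene, so that it may check nothing. With corticosterone, on arrays not used above, Nr3c2 was at 5.11 and 5.47 in knockout cells, against 6.39 and 6.13 in control cells, and the difference passed (-0.97 ± 0.175 SE, adjusted p = 0.029, limma with 7 arrays). Nr3c1 was at 11.32 and 11.21 in knockout cells, against 11.23 and 10.54 in control cells. Lyz2, whose locus drives Cre, was at 13.60 and 13.58 in knockout cells, against 13.63 and 13.78 in control cells, and did not pass (adjusted p = 0.492, limma).

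A gene was called when its adjusted p from limma's moderated test, corrected by Benjamini and Hochberg over all 18193 genes, was under 0.05, with no minimum fold. With both control arrays, no gene was called (0% of 18193), and 807 genes had an unadjusted p under 0.05. The mean over the probe sets of each gene, in place of its brightest one, gave 3 calls. With control replicate 1 alone, in a fit of 7 arrays where its spread is assumed to be that of the other groups, 362 genes were called, which is 1.99% of those tested. Of these, 261 genes (1.43%) were higher and 101 genes (0.555%) were lower in knockout cells.

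The split in direction depends on how arrays are scaled. The median gene level was 0.118 higher on the knockout arrays than on control replicate 1, although the median of the differences was 0.01. Centring every array on its median gave 405 calls, 169 higher and 236 lower, and shifted the median difference over all genes to -0.11. No called gene changed sign under centring, and 160 of the 261 higher and 94 of the 101 lower calls were kept. Differences under about that shift are therefore read only relative to it.

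The raised genes moved further than the lowered ones. Among the 261 higher genes the difference ranged from 0.17 to 4.64 with a median of 0.76, and 90 genes exceeded 1 log2 unit. Among the 101 lower genes the size ranged from 0.14 to 3.11 with a median of 0.32, and 9 genes exceeded 1 unit. Both knockout arrays lay above both controls for 150 of the 261 higher genes (57.5%), against 20% of all genes. They lay below both controls for 41 of the 101 lower genes (40.6%), against 13.7% of all genes. For 81 of the higher and 36 of the lower genes the difference turned sign once the second control array was averaged in. Since calls against replicate 1 use 3 of the 4 arrays compared, these shares are descriptions.

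**Figure D1:**
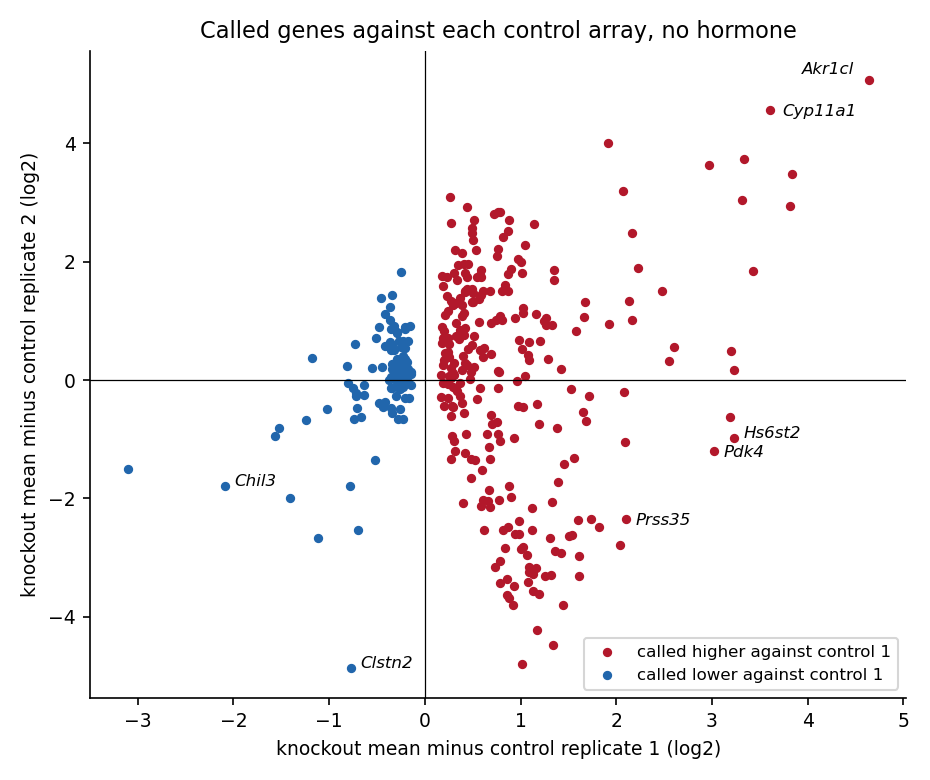
Each of the 362 called genes is plotted by the difference of the knockout mean from control replicate 1 (x axis, log2) and from control replicate 2 (y axis, log2), red for genes called higher and blue for genes called lower against replicate 1. Akr1cl and Cyp11a1 lie far above 0 on both axes, while Prss35, Pdk4 and Hs6st2 are above 0 on the x axis and below 0 on the y axis.

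The 10 largest increases were those of Akr1cl, Hsd3b1, Aldh1a1, Cyp11a1, Nrn1, Ephx2, Bex4, Inha, Hs6st2 and Cemip. Akr1cl, a member of the aldo-keto reductase family, was at 8.48 and 8.21 in knockout cells, against 3.70 and 3.28 in control cells. The difference was 4.64 ± 0.288 (SE, adjusted p = 4.14e-05, limma with 7 arrays), a 25.0-fold change, and 4.86 with both controls (adjusted p = 0.0668). Its second probe set, near the bottom of the scale, differed by 0.49. Aldh1a1, which oxidises retinaldehyde to retinoic acid, was at 7.97 and 8.12 in knockout cells, against 4.23 and 5.10 in control cells (3.81 ± 0.141 SE, adjusted p = 2.35e-06). Ephx2, the soluble epoxide hydrolase, was at 8.93 and 9.10 in knockout cells, against 5.68 and 5.27 in control cells (3.34 ± 0.146 SE, adjusted p = 6.04e-06). For these 3 genes the groups were far apart on every array.

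Cyp11a1 and Hsd3b1, which carry out consecutive early steps of steroid hormone synthesis, rose together. Cyp11a1 cleaves the side chain of cholesterol to give pregnenolone, and was at 8.91 and 9.01 in knockout cells, against 5.35 and 4.40 in control cells (3.61 ± 0.160 SE, adjusted p = 6.04e-06, limma). The other Cyp11a1 probe sets, which are dimmer, differed by 0.40 and -0.0025. Hsd3b1 converts pregnenolone to progesterone, and was at 7.99 and 8.002 in knockout cells, against 4.16 and 4.51 in control cells (3.83 ± 0.223 SE, adjusted p = 2.84e-05). Fdx1, the ferredoxin that passes electrons to Cyp11a1, was 0.41 higher (adjusted p = 0.0318) and lost its call under 6 of 16 other settings, centring included. Of 18 measured genes of steroid synthesis, these 3 rose (16.7%, against 1.43% of all genes) and none fell, with a list median of 0.05 against 0.01 over all genes. With arrays centred 2 rose and the median was -0.06. Star, which delivers cholesterol to Cyp11a1, was at 6.40 and 6.37 in knockout cells, against 6.41 and 3.95 in control cells, so that its difference was -0.02 against replicate 1.

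Inhibins and activins are dimeric ligands of the TGF-β family first known from the gonads. Inha, the inhibin α subunit, was at 6.87 and 6.88 in knockout cells, against 3.64 and 6.70 in control cells (3.23 ± 0.277 SE, adjusted p = 3.59e-04, limma; 1.702 with both controls). The second control array came within 0.2 of the knockout level. Inhba, the activin βA subunit, was at 7.44 and 7.38 in knockout cells, against 5.73 and 6.10 in control cells (1.67 ± 0.316 SE, adjusted p = 0.0314), and lost its call under 7 of 16 other settings. Fst, follistatin, which binds and neutralises activin, was at 7.57 and 7.74 in knockout cells, against 6.11 and 10.28 in control cells. Its difference was 1.54 against replicate 1 (adjusted p = 0.00183) and -0.54 with both controls, so its direction rests on which control array is used. Of 15 measured genes of inhibins, activins, follistatins and their signalling 4 rose (26.7%, against 1.43% of all genes) and none fell, with a median of 0.08 against 0.01 over all genes. The other riser was Smad3, which carries activin signals to the nucleus, at 0.40 against replicate 1 and -0.84 with both controls. With arrays centred 3 rose and the median was -0.04.

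**Figure D2:**
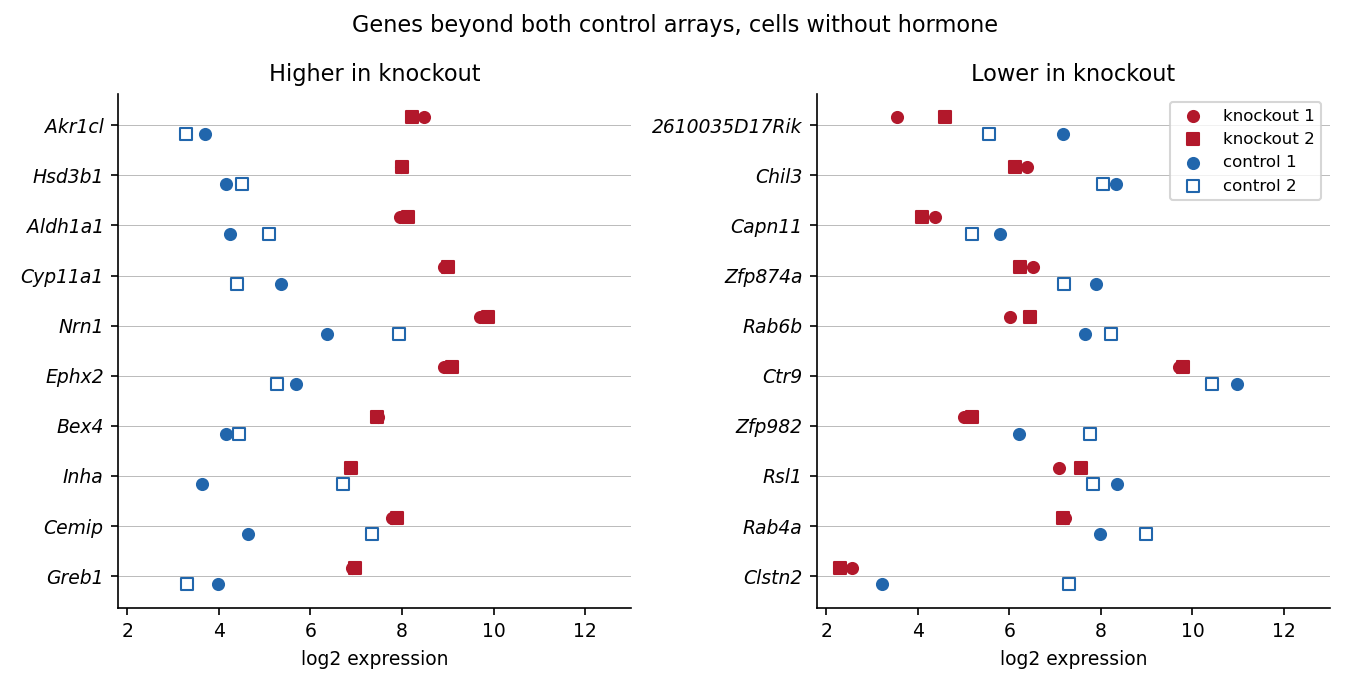
Log2 expression (x axis) is shown for the 10 called genes with the largest increase (left) and the 10 with the largest decrease (right) among those with both knockout arrays beyond both controls; red marks knockout arrays 1 and 2, filled blue control replicate 1 and open blue control replicate 2, without hormone. Akr1cl lies at 8.48 and 8.21 in knockout cells, against 3.70 and 3.28 in control cells, while Inha in control replicate 2 comes close to the knockout arrays.

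Other transcripts with large increases had varied roles. Nrn1, neuritin, was at 9.70 and 9.88 in knockout cells, against 6.36 and 7.94 in control cells (3.43 ± 0.124 SE, adjusted p = 2.35e-06, limma). Greb1, known as an oestrogen-responsive gene, was at 6.90 and 6.98 in knockout cells, against 3.97 and 3.31 in control cells (2.97 ± 0.258 SE, adjusted p = 4.00e-04). Bex4 was at 7.47 and 7.46 in knockout cells, against 4.16 and 4.43 in control cells. Cemip, which takes part in hyaluronan breakdown, was at 7.77 and 7.88 in knockout cells, against 4.63 and 7.34 in control cells. Nr5a2, an orphan nuclear receptor that acts on steroid enzyme genes in the ovary, and chosen for mention after its values were seen, was at 5.89 and 5.98 in knockout cells, against 3.33 and 5.38 in control cells (2.60 ± 0.170 SE, adjusted p = 6.09e-05). For all of these the knockout arrays lay above both controls, by a wide margin for Greb1 and Bex4 and a narrow one for Cemip and Nr5a2. Hs6st2, a heparan sulphate sulphotransferase, was at 7.28 and 7.34 in knockout cells, against 4.08 and 8.29 in control cells, so that the second control array was the highest of the 4. Against replicate 1, the other, dimmer probe sets differed by -0.56 and 0.22 for Cemip and by -0.0047 to 0.69 for Greb1. Those of Hs6st2 differed by -0.40 to 0.57, and those of Nr5a2 by 0.43 to 1.41.

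Because several raised genes are expressed in steroid-producing glands and gonads, marker lists of those cells were read beside them. The mean level of 11 markers of adrenal and testicular steroid-producing cells was 4.96 and 4.92 in knockout cells, against 4.27 and 4.07 in control cells. Cyp11a1 and Hsd3b1 were the called members, 2 of 11 (18.2%, against 1.43% of all genes), and the list median was -0.02. Nr5a1, the defining nuclear receptor of those cells, was at 3.64 and 3.83 in knockout cells, against 3.92 and 4.09 in control cells. Its other probe set, with a mean level of 3.68, went the other way, by 0.51 against replicate 1 and 0.72 with both controls. The mean of 11 Sertoli and granulosa cell markers was 5.19 and 5.29 in knockout cells, against 4.61 and 6.41 in control cells. Of these 11, 2 were called higher (18.2%, against 1.43% of all genes), Inha and the transcription factor Gata4 (1.07), and the list median was 0.45. Gata4 lost its call under 2 of 15 other settings. Its other, dimmer probe set differed by 0.24 against replicate 1 and by -0.08 with both controls. Inhbb, the activin βB subunit, was at 4.89 and 5.39 in knockout cells, against 4.06 and 8.22 in control cells, and was not called. Defining markers of the gonads such as Amh and Fshr did not pass. In pooled bulk cultures, more cells of a type and more RNA per cell cannot be told apart, and the part of other cells in these increases was not tested.

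Promoter windows of the raised genes were read for the half-site AGGTCA, which nuclear receptors such as Nr5a2 bind as part of a longer site, to show how often it stands near genes that moved together. RefSeq windows of 300 bases (GRCm38.p6, 250 bases before to 50 after a gene start) were searched on both strands. AGGTCA was present for 14.7% of 197 called higher genes, 10.4% of 77 called lower genes and 12.5% of all 14452 measured genes with a window, so the share among raised genes is near that of all genes. Among 18 genes raised by over 2 log2 units that had a window, 3 held it: Cyp11a1, Inha and Nr5a2. The longer site CAAGGTCA was in none of these 18 windows and in 1.14% of all genes. The steroid receptor half-site AGAACA was present for 10.7% of called higher, 11.7% of called lower and 12.1% of all genes. The 3 windows follow, 5′ to 3′ on the gene's strand, with AGGTCA in capitals, which did not overlap AGAACA in any of them. Cyp11a1 is at chr9:58014702-58015001 on the plus strand, Inha at chr1:75507359-75507658 on the plus strand and Nr5a2 at chr1:136960399-136960698 on the minus strand. The other window of Cyp11a1 and that of Nr5a2 held no AGGTCA.
Cyp11a1: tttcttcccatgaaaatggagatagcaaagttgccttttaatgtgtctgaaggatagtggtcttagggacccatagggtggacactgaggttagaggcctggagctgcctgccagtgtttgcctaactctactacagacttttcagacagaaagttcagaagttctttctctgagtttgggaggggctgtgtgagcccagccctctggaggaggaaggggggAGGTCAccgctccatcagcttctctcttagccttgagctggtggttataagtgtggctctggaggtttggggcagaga
Inha: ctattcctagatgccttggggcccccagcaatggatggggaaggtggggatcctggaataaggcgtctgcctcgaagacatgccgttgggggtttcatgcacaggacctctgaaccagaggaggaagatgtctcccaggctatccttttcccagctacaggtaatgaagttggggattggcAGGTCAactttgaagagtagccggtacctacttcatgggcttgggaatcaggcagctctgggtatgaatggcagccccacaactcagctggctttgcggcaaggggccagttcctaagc
Nr5a2: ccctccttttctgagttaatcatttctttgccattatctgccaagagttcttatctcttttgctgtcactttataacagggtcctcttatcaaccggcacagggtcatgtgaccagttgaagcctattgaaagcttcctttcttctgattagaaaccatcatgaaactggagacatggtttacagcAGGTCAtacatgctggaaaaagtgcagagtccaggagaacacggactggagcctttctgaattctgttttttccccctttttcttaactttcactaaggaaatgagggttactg
The half-site began at base 223 of the Cyp11a1 window, 182 of the Inha window and 187 of the Nr5a2 window. A match of these letters is a description and not a measured binding site.

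Chil3 fell. This gene encodes Ym1, a chitinase-like protein secreted by alternatively activated macrophages. It was at 6.39 and 6.12 in knockout cells, against 8.34 and 8.04 in control cells, with the groups clearly apart and the control arrays near each other. The difference was -2.09 ± 0.0967 (SE, adjusted p = 6.23e-06, limma with 7 arrays) and -1.94 with both controls (adjusted p = 0.0910). Chil3 has close relatives in the mouse, and probes of the set could also take up their RNA.

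Markers of alternative activation did not move as one. Of 28 measured genes of that list, 6 rose (21.4%, against 1.43% of all genes) and 3 fell (10.7%, against 0.555%), with a median of 0.05. With arrays centred 3 rose, 3 fell and the median was -0.07. Retnla, the secreted protein Fizz1, was at 11.12 and 11.04 in knockout cells, against 9.94 and 8.44 in control cells (1.15 ± 0.0508 SE, adjusted p = 6.04e-06, limma). F13a1, the A subunit of coagulation factor XIII and a monocyte marker, was at 10.26 and 10.31 in knockout cells, against 8.15 and 8.96 in control cells (2.13 ± 0.0511 SE, adjusted p = 1.84e-07). Retnla and F13a1 thus rose in the cells where Chil3 fell. All 3 belong as well to 8 measured markers of small peritoneal macrophages and monocytes. Of these 8, 3 rose (37.5%, against 1.43% of all genes) and 1 fell (12.5%, against 0.555%), with a median of 0.63. The third riser among those 8 was Fcrls, which was 1.02 higher.

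Chemokines and their receptors rose more often than they fell. Of 29 measured members 10 rose (34.5%, against 1.43% of all genes) and 1 fell (3.45%, against 0.555%), with a median of 0.32 against 0.01 over all genes, and 14 of 29 had both knockout arrays above both controls, against 20% of all genes. Cx3cr1, the fractalkine receptor of monocytes and tissue macrophages, was at 7.83 and 7.87 in knockout cells, against 5.69 and 5.37 in control cells (2.16 ± 0.248 SE, adjusted p = 0.00220, limma). Its other probe set, with a mean level of 3.39, differed by 0.11 against replicate 1 and by 0.08 with both controls. Cxcl5, a neutrophil-attracting chemokine, was at 5.75 and 5.60 in knockout cells, against 4.33 and 3.81 in control cells (1.35 ± 0.179 SE, adjusted p = 0.00480). Cxcl16 was at 10.33 and 10.31 in knockout cells, against 9.46 and 8.53 in control cells. The monocyte attractants Ccl2 and Ccl7 were 0.45 and 0.72 higher, Ccl5 was 0.77 higher and Ccl17 was 0.69 higher. Ccl3 and Ccl4, neighbours on the chromosome, were 0.18 and 0.52 higher. Ccl3 lost its call under 11 of 16 other settings, down to 0.06 with arrays centred, Ccl5 under 9 and Ccl7 under 8, while Ccl2, Ccl4 and Ccl17 lost it under 2 each. With arrays centred, 6 members rose, 1 fell and the median was 0.20.

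**Figure D3:**
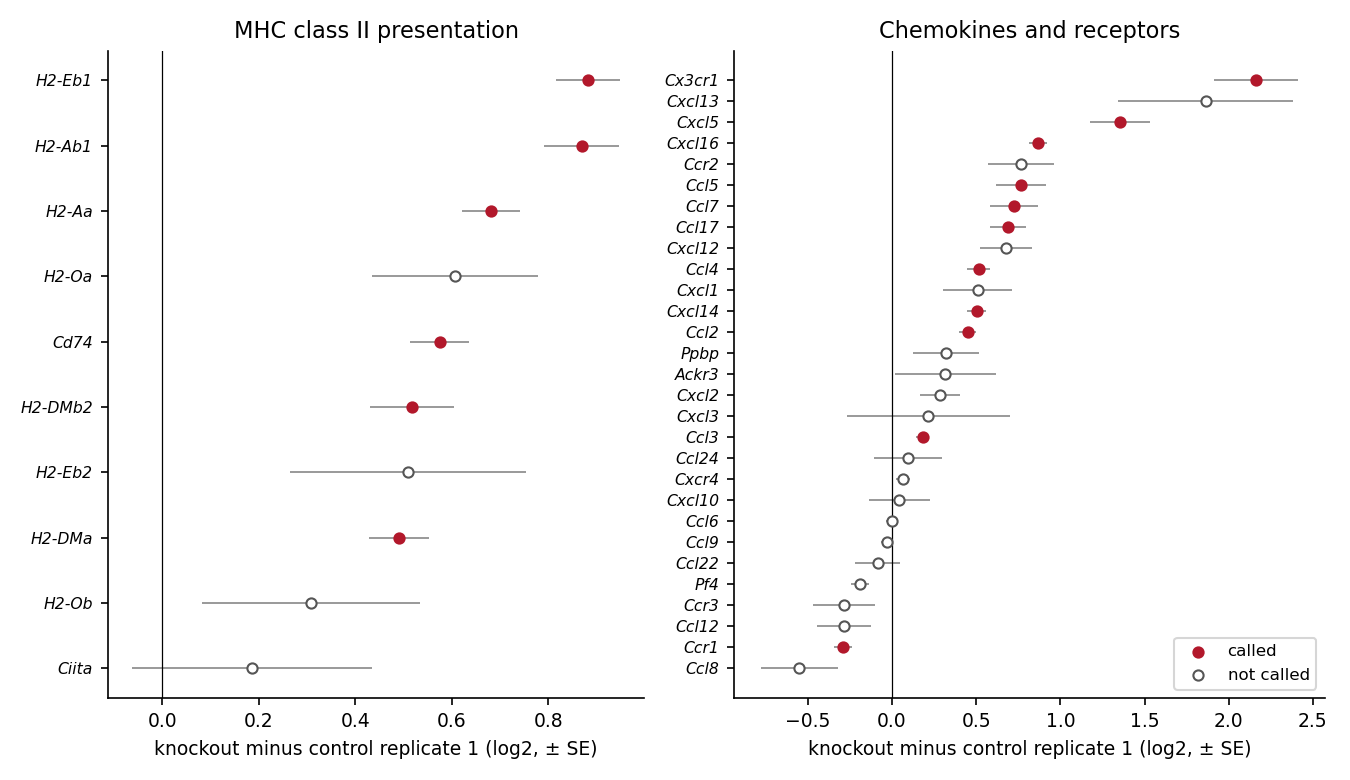
The difference of the knockout mean from control replicate 1 (x axis, log2, bars are SE of the 7-array fit) is shown for 10 genes of MHC class II presentation (left) and 29 chemokines and receptors (right), with filled red points for called genes. All 10 MHC class II genes lie above 0, and Cx3cr1 is the largest difference among the chemokine genes at 2.16.

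MHC class II genes, which present peptides to CD4 T cells, rose in 6 of 10 measured members (60.0%, against 1.43% of all genes), and none fell. All 10 had a positive difference, and the median was 0.55 against 0.01 over all genes. H2-Eb1, a class II β chain, was at 11.06 and 11.01 in knockout cells, against 10.15 and 8.33 in control cells (0.88 ± 0.0664 SE, adjusted p = 1.60e-04, limma). H2-Ab1 was at 10.97 and 11.11 in knockout cells, against 10.17 and 9.54 in control cells, and H2-Aa at 11.13 and 11.07 in knockout cells, against 10.42 and 9.59 in control cells. Cd74, the invariant chain, was 0.58 higher and H2-DMb2, which helps to load peptide, was 0.52 higher but lost its call under 7 of 16 other settings. The second control array was the lowest of the 4 for each of these genes. With arrays centred, 5 members rose and the median was 0.43. The mean of 11 B cell markers, cells that also carry class II, was 8.17 and 8.11 in knockout cells, against 7.87 and 7.30 in control cells. Of those 11 markers Cd79a (0.51) and Ly6d (0.76) were called higher (18.2%, against 1.43% of all genes), and they lost their calls under 8 and 4 of 16 other settings. The part of B cells in the class II difference was not tested.

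Several secreted and surface proteins of macrophages are given next, of which Hp and Aif1 were chosen after their values were seen. Hp, haptoglobin, which binds free haemoglobin, was at 10.49 and 10.44 in knockout cells, against 8.40 and 7.27 in control cells (2.07 ± 0.0619 SE, adjusted p = 6.83e-07, limma). Cfb, complement factor B, was at 10.19 and 10.06 in knockout cells, against 8.78 and 8.43 in control cells (1.35 ± 0.0734 SE, adjusted p = 1.78e-05). Aif1, the macrophage calcium-binding protein Iba1, was at 9.73 and 9.76 in knockout cells, against 8.59 and 8.63 in control cells, where the control arrays agreed closely. Tlr2 was 0.75 higher, Marco, a scavenger receptor, 0.82 higher and C1qa 0.44 higher. Bst2, an interferon-stimulated antiviral protein, was 0.41 lower against replicate 1 and 0.08 higher with both controls.

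Among 22 measured genes for the uptake of apoptotic cells 5 rose (22.7%, against 1.43% of all genes) and 2 fell (9.09%, against 0.555%), with a median of 0.01. With arrays centred 2 rose, 2 fell and the median was -0.11. Axl, a receptor kinase for apoptotic cells, was at 10.31 and 10.30 in knockout cells, against 9.54 and 10.18 in control cells (0.77 ± 0.101 SE, adjusted p = 0.00457, limma), and its ligand Gas6 was 0.45 higher. Mfge8, a bridging protein, was at 12.48 and 12.54 in knockout cells, against 12.86 and 12.25 in control cells (-0.35 ± 0.0354 SE, adjusted p = 0.00117), with a difference of -0.04 against both controls. Stab1, a scavenger receptor, was 0.39 higher. A receptor and its ligand were thus higher while a bridging protein was lower against the same control array.

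For cell cycle and matrix genes the second control array turned the direction of the list median. Of 30 measured cell cycle genes 7 rose (23.3%, against 1.43% of all genes) and none fell. Of the 30, 29 were positive against replicate 1, against 53.8% of all genes, with a median of 0.30. With both controls the median was -0.18. Cdk1, the mitotic kinase, was at 8.79 and 9.01 in knockout cells, against 8.21 and 9.49 in control cells, and Ccna2, cyclin A2, was at 8.66 and 8.75 in knockout cells, against 7.93 and 10.73 in control cells. Of 23 measured extracellular matrix genes 5 rose (21.7%, against 1.43% of all genes) and none fell, with a median of 0.32 against replicate 1 and -1.46 with both controls. Col4a1, a basement membrane collagen, was at 8.40 and 8.60 in knockout cells, against 6.99 and 11.13 in control cells. Cdk1, Ccna2 and Col4a1 thus had knockout arrays between the control arrays. Both knockout arrays lay above both controls for 8 of the 30 cell cycle genes and 1 of the 23 matrix genes, against 20% of all genes. Mcm7, a subunit of the replicative helicase, was at 10.61 and 10.72 in knockout cells, against 10.16 and 10.44 in control cells, and Fn1, fibronectin, was at 12.67 and 12.74 in knockout cells, against 12.45 and 12.31 in control cells.

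Known targets of the receptors were read next. Of 17 measured genes that the receptor regulates in epithelia, only Atp1b1, the sodium pump β1 subunit, was called higher (5.88%, against 1.43% of all genes) and none lower. It was at 8.75 and 8.84 in knockout cells, against 8.18 and 11.32 in control cells, which is 0.61 higher against replicate 1 and -0.96 with both controls. Of 37 glucocorticoid-induced genes 4 were called higher (10.8%, against 1.43% of all genes) and 2 lower (5.41%, against 0.555%), with a median of 0.02. With arrays centred 2 were higher, 2 lower and the median was -0.10. Fpr2, a formyl peptide receptor, was at 7.75 and 7.82 in knockout cells, against 5.87 and 3.79 in control cells (1.91 ± 0.175 SE, adjusted p = 5.21e-04, limma). With corticosterone Fpr2 was at 6.24 and 6.60 in knockout cells, against 5.63 and 5.74 in control cells. Though listed as glucocorticoid-induced, it was thus lower with hormone than without in knockout cells. Pdk4, a kinase that inhibits pyruvate dehydrogenase, was at 8.73 and 8.97 in knockout cells, against 5.83 and 10.05 in control cells. Fkbp5, a chaperone of steroid receptors, was at 8.45 and 8.45 in knockout cells, against 8.09 and 8.72 in control cells. For Fpr2 both knockout arrays lay above both controls, and for Pdk4 and Fkbp5 the second control array was the highest of the 4. No member was called among 19 genes of cholesterol synthesis, 13 antioxidant genes, 20 genes of stress and unfolded proteins or 8 of the NADPH oxidase. With 1.99% of all genes called, 0 of these 60 is near the background.

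The lowered genes were mostly of small size, and the largest decreases were in genes of varied or little-known role. The uncharacterised transcript 2610035D17Rik was at 3.54 and 4.59 in knockout cells, against 7.17 and 5.57 in control cells (-3.11 ± 0.408 SE, adjusted p = 0.00480, limma). Its knockout arrays differed from each other by over 1 unit, and both lay below both controls. Rab6b, a small GTPase of vesicle transport, was at 6.02 and 6.46 in knockout cells, against 7.66 and 8.23 in control cells (-1.41 ± 0.209 SE, adjusted p = 0.00944). Capn11, a calpain protease, was 1.56 units lower (-1.56), and Zfp874a, a zinc finger protein, differed by -1.52. The zinc finger genes Zfp982 (-1.12) and Rsl1 (-1.02), a repressor of male-specific liver genes in the mouse, were read by probe sets that may take up RNA of close relatives. Zfp982 lost its call under 5 of 15 other settings and Rsl1 under 5 of 16. The other probe sets of Zfp982, which are dimmer, differed by -0.16 and 0.33 against replicate 1. Each of these 6 genes had both knockout arrays below both controls. Mgll, monoacylglycerol lipase, was at 8.20 and 8.25 in knockout cells, against 8.97 and 8.88 in control cells (-0.74 ± 0.0783 SE, adjusted p = 0.00137). Il27ra, the interleukin 27 receptor, was at 8.50 and 8.76 in knockout cells, against 9.29 and 9.25 in control cells. For Mgll and Il27ra the control arrays agreed within 0.1 and lay above both knockout arrays.

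Some decreases did not hold across probe sets or controls. Ctr9, a subunit of the Paf1 transcription complex, was at 9.70 and 9.79 in knockout cells, against 10.98 and 10.43 in control cells (-1.24 ± 0.0760 SE, adjusted p = 3.98e-05, limma), but its 4 other probe sets differed by -0.33 to 0.34, and the mean over probe sets was not called. Cdh1, E-cadherin, was at 8.003 and 7.96 in knockout cells, against 9.16 and 7.61 in control cells (-1.18 ± 0.0961 SE, adjusted p = 2.42e-04). Npas2, a clock transcription factor, was at 6.98 and 6.98 in knockout cells, against 7.79 and 6.74 in control cells. For Cdh1 and Npas2 the second control array lay below the knockout arrays. Clstn2 was at 2.57 and 2.31 in knockout cells, against 3.21 and 7.31 in control cells, so that its knockout levels and that of replicate 1 were near the bottom of the scale. Rab4a, a GTPase of early endosomes, by contrast lay below both controls, at 7.22 and 7.17 in knockout cells, against 7.97 and 8.99 in control cells. Its other probe set differed by -0.67 against replicate 1 and by -0.05 with both controls.

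The same genotype contrast was available on 4 other arrays, from cells given corticosterone, which shared no array with the contrast without hormone. Whether the cells with and without hormone came from different mice is not known here. Differences between mice or pools could therefore recur in both contrasts, and the shares below are descriptions. Of the 261 genes called higher without hormone, 250 (95.8%) were also higher with it, and of the 101 called lower 92 (91.1%) were also lower, whereas 61.5% of all genes had the same sign in both contrasts. With hormone, 151 of the 261 (57.9%) were called higher again, against 1.29% of all genes, and 34 of the 101 (33.7%) were called lower again, against 0.335% of all genes. These calls share the estimate of spread with the first contrast. Estimated from the 4 hormone arrays alone, 175 of the 261 and 42 of the 101 were called, against 2.04% of all genes called higher and 0.649% called lower. Over 18193 genes, which are not independent replicates, the differences without hormone correlated with those with hormone at 0.599 against replicate 1 and at -0.037 when both controls were averaged.

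The largest increases had nearly the same size with hormone. Akr1cl differed by 4.85 with corticosterone, Cyp11a1 by 3.72, Hsd3b1 by 3.64, Aldh1a1 by 4.10 and Inha by 3.23, all called (limma with 7 arrays). Inha was at 6.87 and 6.73 in knockout cells with hormone, against 3.19 and 3.96 in control cells with hormone, so that its low level in control replicate 1 was also seen in both hormone-treated controls. Of the 81 higher and 36 lower genes whose sign turned with both controls, 77 (95.1%) and 36 (100%) had the replicate 1 sign on the hormone arrays, and 45 and 10 were called there. Fst was 1.82 higher and Col4a1 1.31 higher with hormone, both called. Atp1b1 (-0.05), Egr1 (0.16), Eno2 (-0.17) and F7 (-0.16) were not called with hormone in the 7-array fit, and Atp1b1 had the other sign. With the spread from the 4 hormone arrays alone, Egr1, Eno2 and F7 were called and Atp1b1 was not. Of the decreases, 2610035D17Rik (-2.94), Zfp874a (-1.81), Rab6b (-1.52) and Ctr9 (-1.46) were called again, and Zfp982 (-0.19) and Clstn2 (-0.05) were not.

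**Figure D4:**
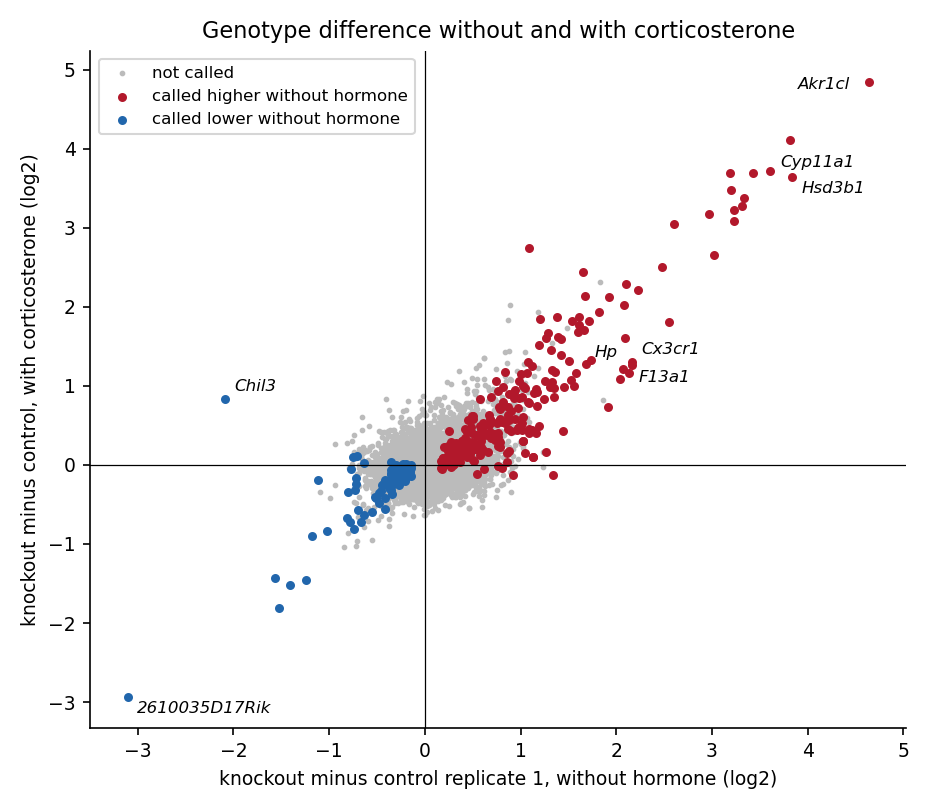
Each gene is plotted by its difference between knockout and control replicate 1 without hormone (x axis, log2) and between knockout and control with corticosterone (y axis, log2); red and blue mark genes called higher and lower without hormone, grey all others. Of the 261 red genes 250 lie above 0 on the y axis, and Chil3 is the blue gene that lies furthest above 0.

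The genotype difference itself depended on hormone for 3 of 18193 genes (0.0165%), tested as an interaction in the 7-array fit, in which 1064 genes had an unadjusted p under 0.05. Chil3 was the largest: with corticosterone it was at 12.31 and 12.32 in knockout cells, against 11.46 and 11.50 in control cells. Its difference was thus 0.84 with hormone and -2.09 without, and the change between them was -2.92 ± 0.125 (SE, adjusted p = 3.40e-05, limma). F13a1 differed by 1.17 with hormone and 2.13 without, a change of 0.97 ± 0.0660 (SE, adjusted p = 0.00110). Hp differed by 1.21 with hormone and 2.07 without, a change of 0.86 ± 0.0799 (SE, adjusted p = 0.0105). Chil3 turned direction, while F13a1 and Hp kept theirs and narrowed.

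**Figure D5:**
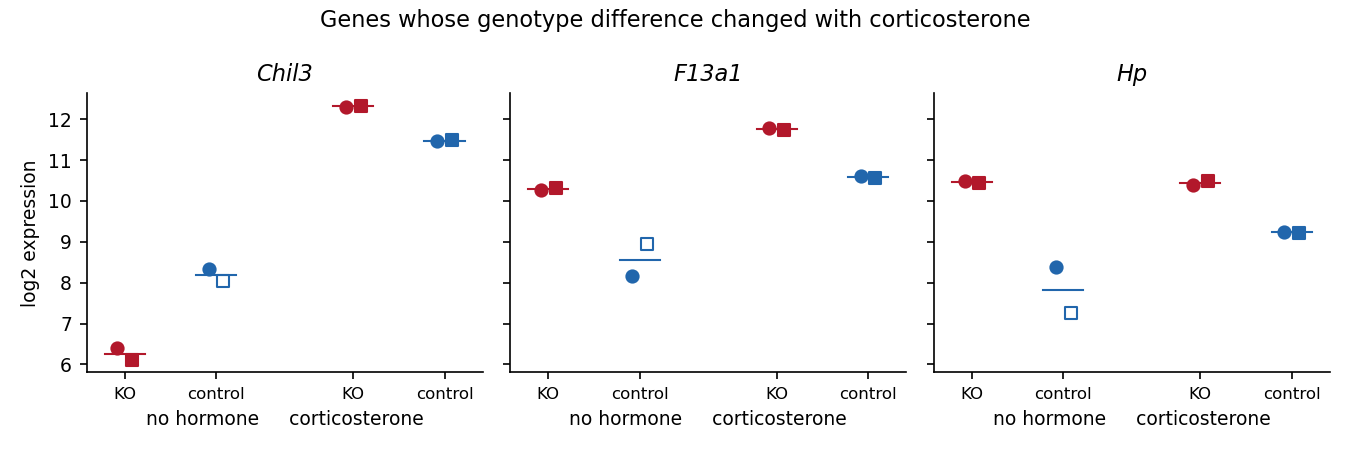
Log2 expression (y axis) of Chil3, F13a1 and Hp is shown on all 8 arrays, with knockout in red and control in blue, circles for replicate 1, squares for replicate 2 and bars for the group mean; the open square is control replicate 2 without hormone. Chil3 is lower in knockout cells without hormone and higher in knockout cells with corticosterone, and F13a1 and Hp are higher in knockout cells under both conditions.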

How the data were processed

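RNA from 8 samples of mouse peritoneal macrophages was hybridised to Affymetrix arrays of 45101 probe sets after biotin labelling with the Ovation system, per the labels' protocols. The deposited values are on a log2 scale and were made by the authors with RMA in R 2.7, per the submitters' processing notes. RMA removes background and forces the arrays onto 1 distribution, so total RNA per cell is not seen and low values are compressed. No detection call is given, and the number of arrays limits the precision.

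An annotation of 1 gene was found for 34945 probe sets; 932 named several genes, 9160 are unnamed here and 64 were controls. Current symbols came from the RefSeq gene table of GRCm38.p6 for 34741 probe sets; 204 stayed with older ones. The probe set of highest mean (all 8 arrays) stood for its gene, giving 18193 genes.

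limma 3.58.1 in R 4.3.3 fitted 1 coefficient per group with a variance trend, over 8 arrays (4 residual degrees of freedom) and over 7 arrays without control untreated replicate 2 (3 residual degrees of freedom). Genes were called under a Benjamini-Hochberg adjusted p of 0.05. The fit was tested on simulated data. Named genes are the 10 largest increases and 10 largest decreases called with 7 arrays, the same among genes beyond both controls, 8 fixed genes, and up to 3 genes of smallest p from each of 28 pathway and 16 cell type lists. Another 24 genes (Nr5a2, Hp, Aif1, Axl, Mgll and others) were named after their values were seen, as was Smad3. The members, lists and the use of 7 arrays were chosen with earlier results of these data known. Replicate numbers were not used to pair the samples. Correlations of replicate differences between groups lay between -0.292 and 0.397. The highest, 0.397, was between knockout and control cells without hormone, the groups compared here. Whether knockout replicate 2 shares features of control replicate 2 was not tested.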

Additional observations from a re-analysis of the deposited data

Results flagged for a closer look

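For 3 genes the genotype difference without hormone differed from that with corticosterone by a test of the difference itself (limma interaction, 7 arrays). The change, without minus with hormone, was -2.923 for Chil3, 0.9675 for F13a1 and 0.861 for Hp. None of the 3 kept its call in a fit without the variance trend, which called 0 genes with 1084 at an unadjusted p under 0.05.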

How the results depend on the processing

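Which control array is used decided most. Without hormone, the count of called genes against control replicate 1 was 362. It was 0 with both controls and 11715 with control replicate 2 as the only control (6649 higher, 5066 lower). With both controls, differences of called genes turned sign for Fst -0.5408, Atp1b1 -0.9587, Bst2 0.07877, Thbs1 -0.01959, Abcg1 0.08954, Eno2 0.1555, Ccna2 -0.6287, Col4a1 -0.5626, Ctsk 0.4651, F7 0.2495, Egr1 -0.6898, Crabp2 -1.271 and Prss35 -0.1195. With replicate 2 as the only control, they turned for Hs6st2 -0.9772, Cdh1 0.3739, Npas2 0.2388, Fkbp5 -0.2691, Fst -2.624, Tgm2 -0.1925, Pdk4 -1.196, Atp1b1 -2.53, Bst2 0.5711, Mfge8 0.2645, Thbs1 -0.7361, Abcg1 0.4993, Eno2 0.5559, Ccna2 -2.028, Cdk1 -0.5871, Col4a1 -2.63, Ctsk 1.392, F7 0.7871, Egr1 -2.041, Itgax 0.1442, Crabp2 -3.478 and Prss35 -2.343, and also for Star 2.438 and Inhbb -3.081, which were not called against replicate 1. The other called genes named, 79 of 92 with both controls, kept their direction but none kept its call. The directions of the 92 held under the other alternatives, except that 12 were not tested under the filter on dim genes.

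With control replicate 1, other settings gave 186 calls with the replicate block (157 higher, 29 lower), 147 from only the arrays compared and 65 without the variance trend; 143 of the 147 and all 65 were among the 362. Leaving out 1 array gave 183 to 927 calls, the most without knockout untreated replicate 1 and the fewest without a control corticosterone replicate. With both controls, leaving out 1 array gave 0 to 11715 calls, the mean of the probe sets of a gene 3, and the replicate block 0. With hormone, 296 genes were called with 7 arrays, 86 without the variance trend, 490 from only the 4 hormone arrays, chosen after seeing the data, and 94 to 476 with 1 array left out; with 8 arrays the count was 0, and 0 to 296 with 1 array left out. The interaction gave 3 calls, 0 without the variance trend, 2 with the replicate block, 2 to 8 with 1 array left out. The labels give same-numbered samples only a number in common, so the block has no stated design behind it. The cause of these changes was not tested. The signal of dim genes gives no detection call, so increases that start near the bottom of the scale may be understated in size.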

Other observations

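Around the 2 loci that were engineered, calls were near the background. Of the 40 measured genes nearest Lyz2 1 was called (2.5%; Kcnmb4, higher), and of the 40 nearest Nr3c2 1 was called (2.5%; Smim7, lower), against 1.99% of all genes.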
